A study of Saccharomyces cerevisiae with 6 samples.

Results

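The DNA replication and cohesion genes of budding yeast, Saccharomyces cerevisiae, are taken here as 39 genes that encode the replication machinery and the cohesin complex. The genes were chosen by name, from the helicase, origin, polymerase, clamp and cohesin subunits down to a histone chaperone, by a rule that holds no measured value, although earlier results of these data were known. All 39 were found among the 6256 genes with a probe, 36 under the listed name and 3 through the systematic name, since the arrays carry POL3, MCM5 and MCM7 under the older names CDC2, CDC46 and CDC47. The data are mRNA ratios from 6 Agilent dual-colour arrays, each of which set a tra1 mutant strain against a strain with wild-type TRA1. The mutant strains were CY1507 with tra1_P3408A, CY1531 with tra1_SRR3413 and CY1514 with tra1_S3463A, and the wild-type strain was CY1524 with TRA1_SB. In all 4 strains, the mutants and CY1524 alike, the chromosomal gene was disrupted (TRA1::Tn10LUK) and the only Tra1 came from a myc-tagged gene on a YCplac111 plasmid, which is a centromeric plasmid. Each allele is known here from 1 strain. Tra1 is a very large subunit of SAGA and of NuA4, which are complexes that acetylate histones, and the 3 alleles change residues of its PI3K-related domain. The series title puts the question as whether that domain is needed for transcription to be regulated.

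Replication begins in G1, when the origin recognition complex and Cdc6 load the Mcm helicase onto origins. In S phase Cdc45 helps to activate the helicase, primase and polymerase alpha start each strand, polymerases delta and epsilon extend it, and cohesin holds the sister copies together from then until anaphase. Many of these genes are periodic in wild-type yeast. A G1/S class, whose promoters are known for binding the factor MBF, peaks as cells enter S phase, an M/G1 class of MCM genes and CDC6 peaks a little earlier, and the remaining subunits are treated here as constitutive. The labels mention no synchronisation, and the cultures were measured in bulk, so a larger share of cells in a cycle stage and more mRNA per cell cannot be told apart in any value below.

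Each allele had 2 arrays, which the series calls biological replicates, and the dyes were swapped between them, so that array 1 had the mutant in Cy5 and array 2 had it in Cy3. Median signal per array lay between 1167 and 3617 in Cy3 and between 1908 and 2482 in Cy5, and both channels of 99.2% to 99.6% of gene spots were well above background. The 63 spots of the 39 genes gave 378 spot values over the arrays, each clearly above background in Cy3 and in Cy5 and none saturated, and 14 were marked as outliers and left out. The 24 genes with 2 spots gave spot ratios on 1 array that differed by a median of 0.037 and by at most 0.22 on the log2 scale. The arrays lay on 3 slides: array 1 of tra1_P3408A and of tra1_SRR3413 on slide 1, array 2 of tra1_P3408A with array 1 of tra1_S3463A on slide 2, and, on slide 3, array 2 of tra1_SRR3413 and array 2 of tra1_S3463A. Labels conflict on 3 arrays. The mutant source of array 1 of tra1_S3463A names the tra1_SRR3413 strain, and a source on array 2 of both alleles names the other dye than the label field does. Titles and label fields were followed. The TRA1 probe was taken to read mutant and wild-type mRNA alike, which was not checked. TRA1 itself had log2 mutant/TRA1 ratios of 0.83 and 1.21 in tra1_P3408A, 0.94 and 1.93 in tra1_SRR3413 and 0.73 and 1.75 in tra1_S3463A. It passed limma's test in tra1_SRR3413 (adjusted p = 0.0260) and tra1_S3463A (0.0496) and not in tra1_P3408A (0.0887, and 0.00369 with the array number as a block).

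Every replication or cohesion mRNA that passed limma's test was higher in the mutant than with TRA1, and averaged over its arrays each of them rose by less than 2-fold. In tra1_SRR3413, 15 of 38 tested genes rose at an adjusted p under 0.05 and 0 fell, against 9.33% of all 6119 tested genes that rose and 11.7% that fell (21.1% in either direction). These 15 were SMC1, RFA3, CDC6, CDC9, TOF1, MCD1, MCM5, CDC45, POL3, RAD27, IRR1, ORC5, RFC2, MCM3 and MCM7. In tra1_S3463A 5 of 38 rose (RFA3, CDC9, TOF1, MCD1 and CDC6), against 6.37% of all genes that rose and 8.69% that fell (15.1% in either direction). In tra1_P3408A 4 of 38 rose (RFA3, TOF1, MCD1 and CDC6), against 4.76% of all genes that rose and 7.93% that fell (12.7% in either direction). At an unadjusted p under 0.05 there were 21 of the 38 in tra1_SRR3413, 16 in tra1_S3463A and 16 in tra1_P3408A, against 36.7%, 32.6% and 28.8% of all genes in that order. RFA3, TOF1, MCD1 and CDC6 therefore passed in all 3 alleles. How many of all genes did so was not counted. The tests of the 3 alleles share the reference strain and the estimate of spread, so they are not independent. POL2 lacked a value on array 2 of tra1_P3408A, where its only spot was marked as an outlier, and was not tested.

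The counts moved with the model and with single arrays. With the array number, which is also the dye orientation, as a block, 19 genes rose in tra1_P3408A, 26 in tra1_SRR3413 and 19 in tra1_S3463A, against 16.9%, 24.1% and 21.2% of all genes, and 1 fell in tra1_P3408A (ORC6) and 1 in tra1_S3463A (PRI2). With the slide as a block 21, 26 and 23 rose, against 21.3%, 25.0% and 24.5% of all genes. In tra1_P3408A 14 rose with only its own arrays in the fit (11.6% of all genes) and 1 with median centring in place of loess (2.63%). In tra1_S3463A 1 rose when its array 1 was counted with tra1_SRR3413 (1.80% of all genes). Without array 2 of tra1_SRR3413 the count of that allele was 1 (1.39% of all genes rose), without its array 1 it was 7 (4.51%), and with either array of tra1_P3408A left out it was 6 (4.34% and 4.39%). With either of its own arrays left out the count was 0 in tra1_P3408A (at most 0.0161% of all genes) and 0 in tra1_S3463A (0.261% and 0.471%). In tra1_S3463A it was 1 with either array of tra1_P3408A left out (2.15% and 2.23% of all genes) and 8 with either array of tra1_SRR3413 left out (6.47% and 6.49%). Each of the 24 rises over the 3 alleles lost its call with at least 1 array of its own allele left out. With both arrays of slide 3 left out, 13 genes rose in tra1_P3408A, 9 in tra1_SRR3413 and 4 in tra1_S3463A, against 11.6%, 6.62% and 5.06% of all genes.

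Taken by direction alone, 25 of 38 genes (65.8%) were above 0 on all 6 arrays, as were 24.2% of all genes, and 0 of 38 were below 0 on all 6, as were 24.7% of all genes. On the 4 arrays of slides 1 and 2 alone, 29 of 38 (76.3%) were above 0 throughout, against 32.8% of all genes. All 3 alleles were set against the same strain, so the 6 arrays share that reference. The median over the 38 genes of the mean log2 ratio was 0.40 in tra1_SRR3413, 0.33 in tra1_P3408A and 0.31 in tra1_S3463A, and lay within 0.011 of 0 over all genes in each allele.

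**Figure D1:**
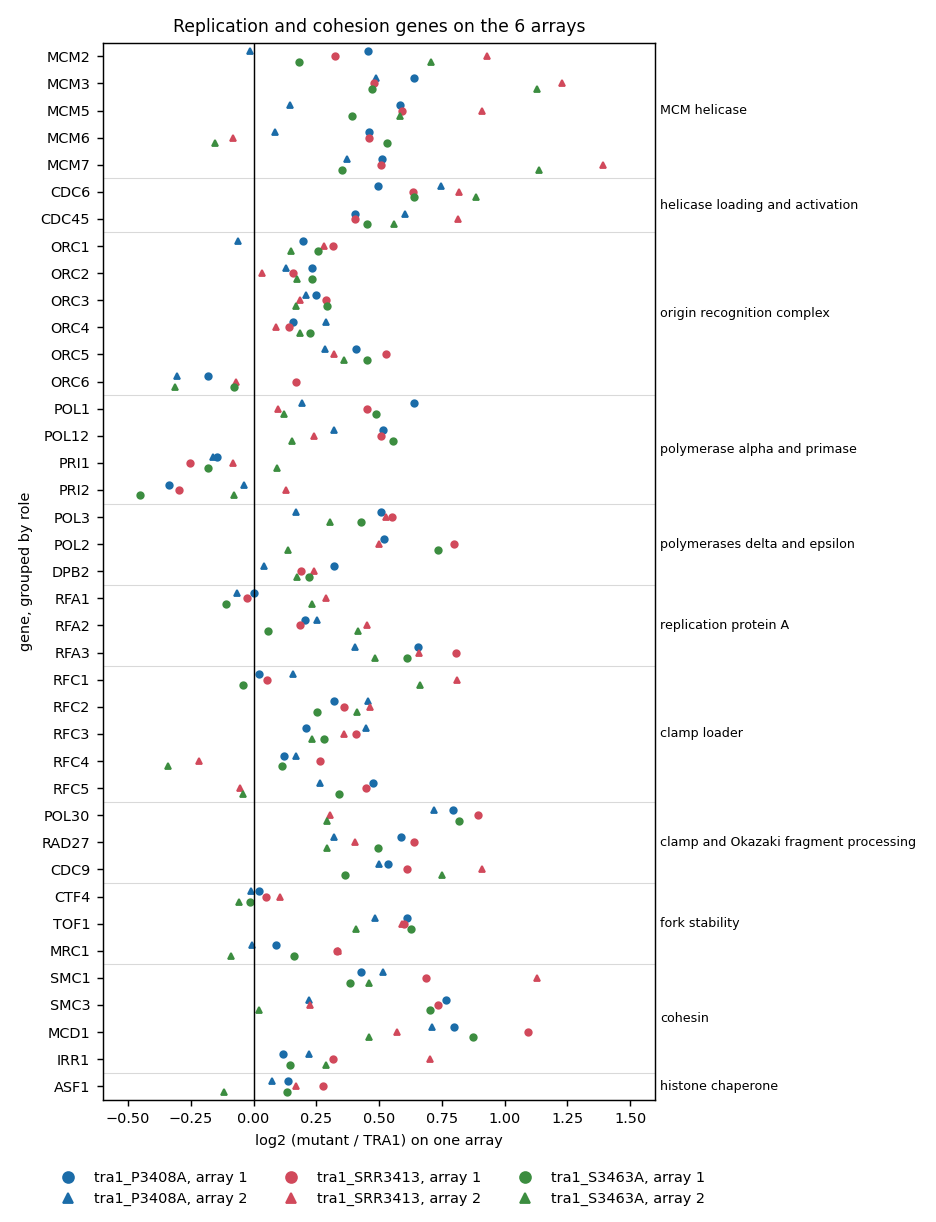
Log2 mutant/TRA1 ratio (x axis) of the 39 genes (y axis), grouped by role, with 1 point for each array, coloured by allele, circles for array 1 and triangles for array 2. Most points lie right of 0, while PRI1, PRI2 and ORC6 have 5 of their 6 points left of 0 and MCM7 reaches 1.39 on array 2 of tra1_SRR3413.

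The MCM genes encode subunits of the replicative helicase and held the highest ratio on a single array. In tra1_SRR3413 MCM3, MCM5 and MCM7 rose, and in the other alleles no MCM gene passed the test. MCM7 had log2 ratios of 0.51 and 1.39 in tra1_SRR3413, 0.35 and 1.14 in tra1_S3463A, and 0.51 and 0.37 in tra1_P3408A. Array 2 of tra1_SRR3413 and of tra1_S3463A stood well above the other 4 arrays, which lay together. The processed signals behind array 2 of tra1_SRR3413 were 1863 in the mutant and 658 in CY1524, and on its array 1 they were 738 in the mutant and 494 in CY1524. MCM7 averaged 0.95 ± 0.62 (SD, n = 2) in tra1_SRR3413, a 1.93-fold rise with a limma adjusted p of 0.04995, next to 0.109 in tra1_S3463A and 0.333 in tra1_P3408A.

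MCM3 showed the same split between arrays, with 0.48 and 1.23 in tra1_SRR3413, 0.47 and 1.13 in tra1_S3463A, and 0.64 and 0.49 in tra1_P3408A. It rose in tra1_SRR3413 by 0.85 ± 0.53 (SD, n = 2; limma adjusted p = 0.0466) and did not pass in tra1_S3463A (0.0650) or tra1_P3408A (0.168). Again the 2 arrays of slide 3 were the highest. MCM5 had 0.59 and 0.91 in tra1_SRR3413, 0.39 and 0.58 in tra1_S3463A, and 0.58 and 0.14 in tra1_P3408A, and rose in tra1_SRR3413 by 0.75 ± 0.22 (SD, n = 2; limma adjusted p = 0.0218). Its array 2 of tra1_SRR3413 was the highest and its array 2 of tra1_P3408A the lowest. MCM2, with 0.33 and 0.93 in tra1_SRR3413, 0.18 and 0.71 in tra1_S3463A, and 0.45 and -0.02 in tra1_P3408A, passed in no allele (limma adjusted p of 0.0863, 0.210 and 0.559 in that order).

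MCM6 went the other way between arrays. It had 0.46 and -0.08 in tra1_SRR3413, 0.53 and -0.15 in tra1_S3463A, and 0.46 and 0.08 in tra1_P3408A, so that the arrays of slide 3 were its lowest, and it passed in no allele (limma adjusted p of 0.479 to 0.599). MCM4, the remaining subunit of the ring, is not among the 39 and is named for completeness after its values were seen. It had 0.30 and 0.75 in tra1_SRR3413, 0.18 and 0.59 in tra1_S3463A, and 0.50 and 0.19 in tra1_P3408A, and did not pass. Slide 3 was therefore high for MCM2, MCM3, MCM4 and MCM7 and low for MCM6. With the slide as a block the log2 ratios in tra1_SRR3413, tra1_S3463A and tra1_P3408A became 0.80, 0.62 and 0.72 for MCM7, 0.72, 0.70 and 0.80 for MCM3, and 0.46, 0.42 and 0.41 for MCM2. The 3 alleles then lay closer together for MCM7, MCM3 and MCM2. For MCM6, at 0.24, 0.34 and 0.07 in the same order, they lay further apart than without the block. The part of the slide in the MCM values was not tested, and MCM3, MCM5 and MCM7 did not pass in tra1_SRR3413 with both arrays of slide 3 left out.

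**Figure D2:**
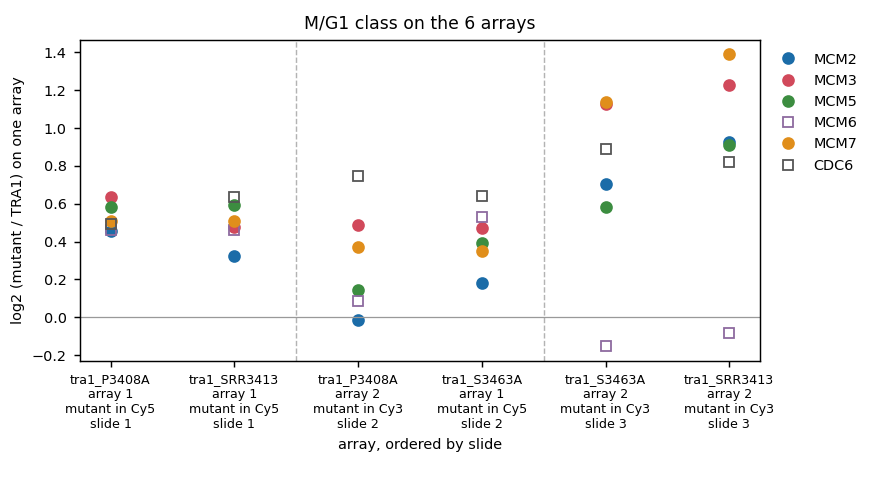
Log2 mutant/TRA1 ratio (y axis) of the 5 MCM genes and CDC6 on each array (x axis), ordered by slide, with dashed lines between slides. MCM2, MCM3 and MCM7 are highest on the 2 arrays of slide 3, MCM6 is below 0 there, and CDC6 (open dark squares) stays between 0.49 and 0.89 throughout.

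CDC6 encodes the ATPase that, with the origin recognition complex, loads the Mcm ring. It had log2 ratios of 0.49 and 0.75 in tra1_P3408A, 0.64 and 0.82 in tra1_SRR3413, and 0.64 and 0.89 in tra1_S3463A. Every array was well above 0, and array 2 was the higher in each allele. Its processed signals were 542 and 702 in the tra1_P3408A mutant channels, against 363 and 391 in CY1524 on the same arrays. CDC6 rose by 0.62 ± 0.18 in tra1_P3408A, 0.73 ± 0.13 in tra1_SRR3413 and 0.76 ± 0.18 in tra1_S3463A (SD, n = 2 each), with limma adjusted p of 0.0319, 0.0145 and 0.0160 in that order.

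CDC45, the helicase cofactor that joins at the start of S phase, had 0.40 and 0.81 in tra1_SRR3413, 0.45 and 0.56 in tra1_S3463A, and 0.40 and 0.60 in tra1_P3408A. It rose in tra1_SRR3413 by 0.61 ± 0.29 (SD, n = 2; limma adjusted p = 0.0284) and missed the threshold in tra1_S3463A (0.0583) and tra1_P3408A (0.0648). The arrays of the 3 alleles overlapped.

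The origin recognition complex, which marks origins throughout the cycle, had small ratios. ORC5 was its highest member, with 0.53 and 0.32 in tra1_SRR3413, 0.45 and 0.36 in tra1_S3463A, and 0.41 and 0.29 in tra1_P3408A. It rose in tra1_SRR3413 by 0.42 ± 0.15 (SD, n = 2; limma adjusted p = 0.0451), next to 0.0602 in tra1_S3463A and 0.1002 in tra1_P3408A, and its 6 arrays overlapped between alleles. ORC6 was the lowest of the constitutive class by its mean over the 6 arrays, with 0.17 and -0.07 in tra1_SRR3413, -0.08 and -0.31 in tra1_S3463A, and -0.18 and -0.30 in tra1_P3408A, and passed in no allele. ORC6 was thus below 0 on 5 arrays, while ORC2, ORC3 and ORC4 were above 0 on all 6, between 0.03 and 0.29. ORC1 lay between -0.06 and 0.31. None of ORC1, ORC2, ORC3 or ORC4 passed.

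Polymerase alpha and primase make up a single complex, and its polymerase and primase subunits lay on opposite sides of 0 on most arrays. POL1, the catalytic subunit, was between 0.10 and 0.64 over the 6 arrays, and POL12, its B subunit, between 0.15 and 0.56. Both were above 0 on every array and passed in no allele (limma adjusted p of 0.117 to 0.293). The primase subunits were lower. PRI2 had -0.30 and 0.13 in tra1_SRR3413, -0.45 and -0.08 in tra1_S3463A, and -0.34 and -0.04 in tra1_P3408A. It was below 0 on 5 arrays, with the lowest ratio of any of the 39 genes on array 1 of tra1_S3463A, and did not pass (limma adjusted p of 0.321 to 0.739). PRI1 was below 0 on 5 arrays, between -0.25 and 0.09, and did not pass.

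POL3, the catalytic subunit of polymerase delta, had 0.55 and 0.53 in tra1_SRR3413, 0.43 and 0.30 in tra1_S3463A, and 0.51 and 0.17 in tra1_P3408A. The tra1_SRR3413 arrays were the closest pair and both lay above the other 4. POL3 rose there by 0.54 ± 0.02 (SD, n = 2; limma adjusted p = 0.0298) and did not pass in tra1_S3463A (0.09999) or tra1_P3408A (0.132). POL2, the catalytic subunit of polymerase epsilon, had 0.80 and 0.50 in tra1_SRR3413, 0.73 and 0.14 in tra1_S3463A, and 0.52 on array 1 of tra1_P3408A, with 0.44 for the spot marked as an outlier on array 2. All of these were above 0. DPB2, an accessory subunit of the same enzyme, lay between 0.04 and 0.32 and did not pass.

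Replication protein A coats single-stranded DNA with a large, a middle and a small subunit, and the small one passed the test. RFA3, that subunit, had 0.65 and 0.40 in tra1_P3408A, 0.81 and 0.66 in tra1_SRR3413, and 0.61 and 0.49 in tra1_S3463A. All 6 arrays were high, and array 1 exceeded array 2 in each allele. It rose by 0.53 ± 0.18 in tra1_P3408A, 0.73 ± 0.10 in tra1_SRR3413 and 0.55 ± 0.09 in tra1_S3463A (SD, n = 2 each), with limma adjusted p of 0.0390, 0.0112 and 0.0320. RFA2 was above 0 on all 6 arrays, between 0.06 and 0.45. RFA1, the large subunit, was above 0 on 3 arrays and spanned -0.11 to 0.29. Whether the subunits differ from each other was not tested, since each probe has its own response.

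The clamp loader places the sliding clamp at primer ends. Its subunit RFC2 had 0.36 and 0.46 in tra1_SRR3413, 0.25 and 0.41 in tra1_S3463A, and 0.32 and 0.46 in tra1_P3408A. The pairs overlapped, with array 2 higher in each. It rose in tra1_SRR3413 by 0.41 ± 0.07 (SD, n = 2; limma adjusted p = 0.0464) and did not pass in tra1_P3408A (0.0706) or tra1_S3463A (0.0958). RFC3, by its mean over the 6 arrays the highest constitutive gene among those that did not pass, had 0.41 and 0.36 in tra1_SRR3413, 0.28 and 0.23 in tra1_S3463A, and 0.21 and 0.45 in tra1_P3408A, with limma adjusted p of 0.0576 to 0.172. RFC1, RFC4 and RFC5 did not pass, and each had arrays on both sides of 0. On slide 3 RFC1 reached 0.81 and 0.66, its highest values, while RFC4 was at -0.22 and -0.34 and RFC5 at -0.05 and -0.04, their lowest, each given for tra1_SRR3413 and then tra1_S3463A.

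POL30 encodes PCNA, the sliding clamp itself. It had 0.79 and 0.72 in tra1_P3408A, 0.90 and 0.31 in tra1_SRR3413, and 0.82 and 0.29 in tra1_S3463A. The arrays of slide 3 were its lowest, and the other 4 lay between 0.72 and 0.90. It averaged 0.76 ± 0.05 in tra1_P3408A, 0.60 ± 0.42 in tra1_SRR3413 and 0.56 ± 0.37 in tra1_S3463A (SD, n = 2 each) and missed the threshold in each allele, with limma adjusted p of 0.0524, 0.0716 and 0.102. With the array number as a block these became 0.00524, 0.00792 and 0.0120. Leaving out slide 3, which held its lowest values, left 1 array each of tra1_SRR3413 and tra1_S3463A, at 0.90 and 0.82. POL30 and RFC5 are neighbours transcribed towards each other in the R64 annotation.

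CDC9, the ligase that seals Okazaki fragments, had 0.61 and 0.91 in tra1_SRR3413, 0.36 and 0.75 in tra1_S3463A, and 0.54 and 0.50 in tra1_P3408A. Its highest arrays were those of slide 3. It rose by 0.76 ± 0.21 in tra1_SRR3413 and 0.56 ± 0.27 in tra1_S3463A (SD, n = 2 each; limma adjusted p of 0.0162 and 0.0486), and its 0.52 ± 0.03 in tra1_P3408A did not pass (0.0635). The call in tra1_S3463A did not hold with the arrays of slide 3 left out. RAD27, the nuclease that trims the flaps between fragments, had 0.64 and 0.41 in tra1_SRR3413, 0.50 and 0.29 in tra1_S3463A, and 0.59 and 0.32 in tra1_P3408A. Array 1 was higher in every allele. RAD27 rose in tra1_SRR3413 by 0.52 ± 0.17 (SD, n = 2; limma adjusted p = 0.0375) and did not pass in tra1_P3408A (0.0723) or tra1_S3463A (0.0943).

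TOF1, MRC1 and CTF4 encode proteins that travel with the fork, and of these TOF1 passed the test. Tof1 keeps the helicase and the polymerases together when a fork pauses. TOF1 had 0.61 and 0.48 in tra1_P3408A, 0.60 and 0.59 in tra1_SRR3413, and 0.63 and 0.41 in tra1_S3463A, so that all 6 arrays lay within 0.41 to 0.63. Its processed signals in the tra1_SRR3413 mutant were 1262 and 1453, against 793 and 927 in CY1524. TOF1 rose by 0.55 ± 0.09 in tra1_P3408A, 0.59 ± 0.01 in tra1_SRR3413 and 0.52 ± 0.15 in tra1_S3463A (SD, n = 2 each), with limma adjusted p of 0.0314, 0.0171 and 0.0320. MRC1, its partner and a checkpoint mediator, had 0.33 and 0.34 in tra1_SRR3413, 0.16 and -0.09 in tra1_S3463A, and 0.09 and -0.00443 in tra1_P3408A, and did not pass. CTF4, which ties polymerase alpha to the helicase, stayed between -0.06 and 0.10 on all arrays.

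Cohesin is a ring of Smc1, Smc3 and the kleisin Mcd1, with Irr1 bound to it, and all 4 genes were above 0 on every array. MCD1 had 0.80 and 0.71 in tra1_P3408A, 1.09 and 0.57 in tra1_SRR3413, and 0.87 and 0.46 in tra1_S3463A. Array 1 was higher in each allele, by most in tra1_SRR3413. MCD1 rose by 0.76 ± 0.06 in tra1_P3408A, 0.83 ± 0.37 in tra1_SRR3413 and 0.67 ± 0.29 in tra1_S3463A (SD, n = 2 each), with limma adjusted p of 0.0384, 0.0213 and 0.0487.

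SMC1 had 0.69 and 1.13 in tra1_SRR3413, 0.38 and 0.46 in tra1_S3463A, and 0.43 and 0.51 in tra1_P3408A. Both tra1_SRR3413 arrays lay above the other 4. The processed signals of that allele were 4835 and 8859 in the mutant, against 2928 and 4010 in CY1524. SMC1 rose in tra1_SRR3413 by 0.91 ± 0.31 (SD, n = 2), 1.87-fold, with the lowest adjusted p of the 39 genes in any allele (limma, 0.00905), and did not pass in tra1_P3408A (0.0732) or tra1_S3463A (0.0897).

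IRR1 had 0.32 and 0.70 in tra1_SRR3413, 0.14 and 0.29 in tra1_S3463A, and 0.12 and 0.22 in tra1_P3408A. Again the tra1_SRR3413 pair lay above the rest. IRR1 rose in tra1_SRR3413 by 0.51 ± 0.27 (SD, n = 2; limma adjusted p = 0.0420) and did not pass elsewhere (0.313 and 0.464), and the call was lost with any 1 of the 6 arrays left out. SMC3 was split by array number, with 0.70 to 0.77 on the 3 first arrays and 0.02 to 0.22 on the 3 second arrays, and passed in no allele (limma adjusted p of 0.186 to 0.331). With the array number as a block it passed in all 3 (0.00456 to 0.0133), whereas a block for the slide gave a pass in tra1_SRR3413 (0.0150) and tra1_S3463A (0.0129) but not in tra1_P3408A (0.0941). The part of the dye in that split was not tested. ASF1, a chaperone of histones H3 and H4 that acts behind the fork, lay between -0.12 and 0.28 and did not pass.

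**Figure D3:**
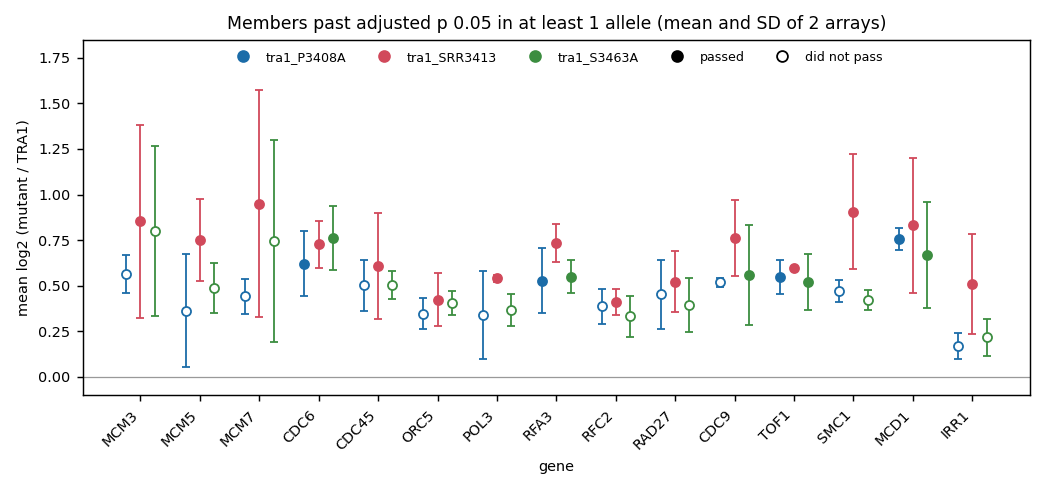
Mean log2 mutant/TRA1 ratio (y axis) of the 15 genes that passed limma's adjusted p of 0.05 in at least 1 allele (x axis), with bars of 1 SD over 2 arrays, filled points where the gene passed and open points where it did not. RFA3, TOF1, MCD1 and CDC6 are filled in all 3 alleles, and the bars of MCM3 and MCM7 are the longest in tra1_SRR3413 and tra1_S3463A.

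Setting the S phase genes bound by MBF against constitutive ones was the comparison for which the genes were gathered. The G1/S class had 8 of 20 tested genes that rose in tra1_SRR3413, 4 of 20 in tra1_S3463A and 3 of 20 in tra1_P3408A. The M/G1 class had 4 of 6, 1 of 6 and 1 of 6, and the constitutive class 3 of 12, 0 of 12 and 0 of 12, in the same order of alleles, where 9.33%, 6.37% and 4.76% of all genes rose. For the constitutive class in tra1_S3463A and tra1_P3408A, limma's unadjusted p was under 0.05 for 2 and 3 genes, against 32.6% and 28.8% of all genes. With the array number as a block the G1/S class had 14, 12 and 12 that rose, the M/G1 class 5, 4 and 2, and the constitutive class 7, 3 and 5, where 24.1%, 21.2% and 16.9% of all genes rose. PRI2 of the G1/S class fell there in tra1_S3463A, and ORC6 of the constitutive class in tra1_P3408A. The median log2 ratio of the G1/S class on arrays 1 and 2 was 0.48 and 0.32 in tra1_SRR3413, 0.41 and 0.26 in tra1_S3463A, and 0.47 and 0.24 in tra1_P3408A. That of the constitutive class was 0.30 and 0.23, 0.24 and 0.18, and 0.20 and 0.21. Constitutive genes were therefore above 0 at the median on every array too.

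The G1/S median exceeded the constitutive median by 0.18 and 0.09 in tra1_SRR3413 (0.13 ± 0.06, SD, n = 2), by 0.16 and 0.08 in tra1_S3463A (0.12 ± 0.06) and by 0.27 and 0.02 in tra1_P3408A (0.14 ± 0.17). The difference was positive on all 6 arrays and smaller than its own SD in tra1_P3408A. The M/G1 class exceeded the constitutive class by 0.69 on array 2 and 0.19 on array 1 of tra1_SRR3413, by 0.62 and 0.19 on the same arrays of tra1_S3463A, and by 0.04 and 0.30 on those of tra1_P3408A. Its 2 large differences were both on slide 3. Genes are not replicates and the classes come from general knowledge, so these class differences are given without a test. Within the G1/S class the values spread widely, from PRI2 and PRI1 below 0 on 5 arrays to MCD1 at 0.46 or above on all 6.

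**Figure D4:**
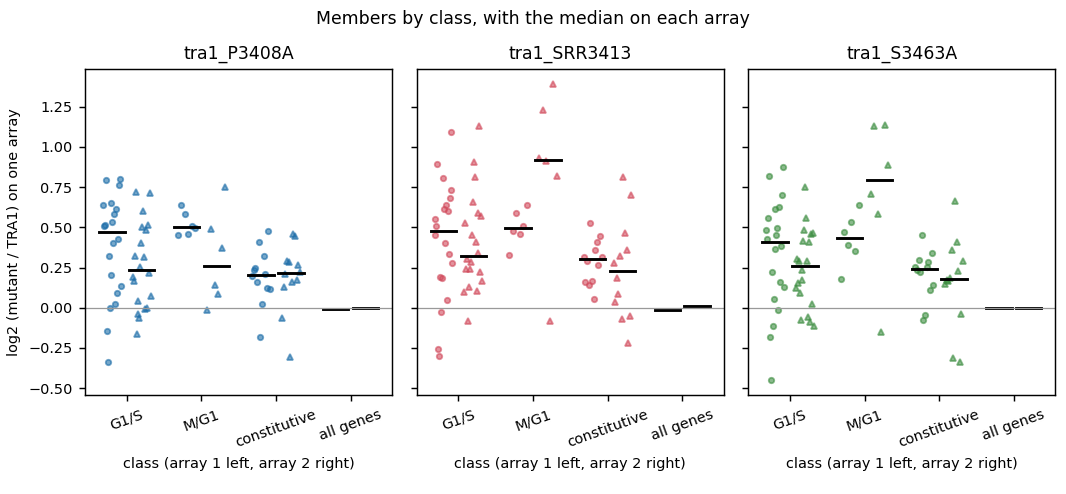
Log2 mutant/TRA1 ratio (y axis) of the genes in each class (x axis), array 1 left and array 2 right, 1 panel for each allele, with a bar at the class median. The constitutive medians lie between 0.18 and 0.30, the G1/S medians between 0.24 and 0.48, and the M/G1 medians of array 2 in tra1_SRR3413 and tra1_S3463A reach 0.92 and 0.80.

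The order of the 2 arrays was shared between alleles by many genes. In 17 of 38 genes array 1 was above array 2 in all 3 alleles, among them POL30, RFA3, RAD27, SMC3, MCD1 and MCM6. In 8 genes array 2 was above array 1 in all 3, namely PRI2, RFA2, CDC45, SMC1, CDC6, RFC1, RFC2 and IRR1. In 7 genes array 2 was the higher in tra1_SRR3413 and tra1_S3463A and the lower in tra1_P3408A, namely PRI1, RFA1, CDC9, MCM2, MCM3, MCM5 and MCM7. The dye, the array number and the slide all move with these orders, since the 2 arrays of each allele lay on different slides. Their part was not tested. The orders were not counted over all genes. Over all 6119 tested genes the deviations of same-numbered arrays correlated at 0.467 to 0.930 between alleles. These counts are therefore not given as a trait of the 38 genes.

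No gene was shown to differ between alleles. In limma's contrasts 0 of the 38 genes and 0 of all 6119 passed for tra1_SRR3413 against tra1_P3408A, for tra1_S3463A against tra1_P3408A, or for tra1_SRR3413 against tra1_S3463A, and the same held with a block for the array number or for the slide. At an unadjusted p under 0.05 there were 0, 0 and 1 of the 38 genes, and 105, 6 and 105 of all genes. The gene with the lowest p was SMC1 in both contrasts of tra1_SRR3413, with means of 0.91 in tra1_SRR3413 against 0.42 in tra1_S3463A (difference 0.48, SE 0.19, unadjusted p = 0.0446, limma adjusted p = 0.9996). Against the 0.47 of tra1_P3408A the difference was 0.44 (SE 0.19, unadjusted p = 0.0633, limma adjusted p = 0.998). For tra1_S3463A against tra1_P3408A it was RFC4, with -0.11 and 0.15 (difference -0.26, SE 0.24, unadjusted p = 0.312, limma adjusted p = 0.999). The ratio was higher in tra1_SRR3413 than in tra1_S3463A for 32 of 38 genes and than in tra1_P3408A for 28 of 38. The median differences were 0.11 and 0.08, against -0.0076 and 0.0011 over all genes. How many of all genes were higher in tra1_SRR3413 was not counted. Nor was it counted how many had both tra1_SRR3413 arrays above all the others, as with SMC1, IRR1, POL3, MRC1 and ORC1. With no contrast passed, the larger number of genes that passed in tra1_SRR3413 is not a shown difference between alleles.

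A wider list of 36 other replication and cohesion genes, with the remaining helicase, origin firing, polymerase, cohesin loading and chromatin assembly factors, was counted in the same way. Of these 36 genes 13 rose in tra1_SRR3413 (36.1%), 7 in tra1_S3463A (19.4%) and 6 in tra1_P3408A (16.7%), against 9.33%, 6.37% and 4.76% of all genes. None fell by limma's test, and 17, 13 and 11 had an unadjusted p under 0.05, against 36.7%, 32.6% and 28.8% of all genes. SCC2, the cohesin loader, had 0.90 and 1.10 in tra1_SRR3413, 0.84 and 0.79 in tra1_S3463A, and 0.75 and 0.59 in tra1_P3408A. All 6 arrays were high, with limma adjusted p of 0.00405, 0.00909 and 0.0177. TOP1, topoisomerase I, had 0.82 and 1.05 in tra1_SRR3413, 0.60 and 0.58 in tra1_S3463A, and 0.57 and 0.50 in tra1_P3408A (limma adjusted p of 0.00483, 0.0225 and 0.0321).

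CTF18, of the alternative clamp loader used in cohesion, rose in all 3 alleles, with means of 0.62, 0.54 and 0.48 in tra1_SRR3413, tra1_S3463A and tra1_P3408A. PSF3, of the GINS complex that activates the helicase, also rose in all 3, with means of 0.57, 0.49 and 0.51. DNA2, a nuclease and helicase of Okazaki fragments, rose in tra1_SRR3413 by a mean of 0.60, next to 0.44 in tra1_S3463A and 0.42 in tra1_P3408A, where it also passed. CTF8, a partner of Ctf18, was the only gene of that list below 0 on all 6 arrays, between -0.17 and -0.88, and did not pass (limma adjusted p of 0.122 to 0.289). With the array number as a block it fell in all 3 alleles (0.00300 to 0.0103). CTF8 was chosen after its values were seen.

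Genes outside the replication machinery that MBF is known to bind were counted as well. Of 14 tested, 6 rose in tra1_SRR3413, 3 in tra1_S3463A and 2 in tra1_P3408A, against the same shares of all genes. None fell by limma's test, and 10, 6 and 6 had an unadjusted p under 0.05. RNR1, which encodes the large subunit of ribonucleotide reductase, had a higher mean ratio than each of the 39 genes, with 1.83 and 1.27 in tra1_SRR3413, 1.63 and 1.37 in tra1_S3463A, and 1.55 and 1.61 in tra1_P3408A (limma adjusted p of 0.00334, 0.00504 and 0.00432). TOS4, a chromatin-bound regulator expressed at G1/S, rose in all 3, with means of 0.98, 0.78 and 0.78. SWI4, which encodes the DNA-binding subunit of the related factor SBF, rose in tra1_SRR3413 by 0.82 ± 0.06 (SD, n = 2), next to means of 0.31 in tra1_S3463A and 0.40 in tra1_P3408A that did not pass (limma adjusted p of 0.135 and 0.0799). CLB5, an S phase cyclin, averaged 0.91 ± 0.51 in tra1_SRR3413, 0.65 ± 0.49 in tra1_S3463A and 0.92 ± 0.01 in tra1_P3408A (SD, n = 2 each; limma adjusted p of 0.0377, 0.107 and 0.0502), so that it passed in tra1_SRR3413 with a mean no higher than in tra1_P3408A. SWE1, which encodes a kinase that holds back mitosis, rose in tra1_S3463A by 0.41 ± 0.06, next to means of 0.26 in tra1_SRR3413 and 0.23 in tra1_P3408A that did not pass. These genes and the 39 were measured on the same arrays and share any error of an array.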

How the data were processed

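Total RNA was amplified and labelled with Cy3 and Cy5, per the labels' protocols. The spot intensity values are the authors' output of Agilent's Feature Extraction software, version 7.5.1, per the file headers. The deposited scanner ratio is a log10 of processed Cy5 signal over Cy3 signal, and spot flags are deposited as 0 or 1, per the file headers. The authors' deposited summary of the whole series is also on a log10 scale, mutant over TRA1. On every array 100% of compared spots equalled, within 1e-04, the turned log10 ratio of the scanner's dye-normalised signals. The 6 columns had medians of -0.00157 to 0.0139, and no sign of further centring was found.

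From the raw mean and background signals (10807 spots an array), limma 3.58.1 (R 4.3.3, with version 1.17.8 of the data.table package) computed normexp-corrected values (offset 50) and then a loess within the array, in which the 544 control spots had weight 0. Control spots and outlier spots (0.370% to 8.02% of gene spots) were left out. Saturated spots (0.887% to 1.55%) stayed in. Ratios were turned to log2 mutant over TRA1 and averaged over the spots of a gene. A filter on dim genes (1 channel on 2 arrays well above background) removed 2 genes, and 135 more had a missing array, which left 6119. Symbols came from the R64 annotation, which held 5756 (92.0%) of the names.

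A single limma fit (lmFit, eBayes) over the 6 arrays tested each allele against 0, two-sided, with 3 residual and 3.08 prior degrees of freedom, and p-values were adjusted by Benjamini-Hochberg over all genes. The fit was also run on simulated data with independent noise on each array. That simulation leaves out deviations that arrays share, so it cannot tell whether the p-values of these arrays are right. The p-values reflect the spread between arrays, and nothing in the labels says whether separate TRA1 extracts were used. By the labels the array number is the dye orientation, and same-numbered arrays deviated together (correlations of 0.512 for tra1_P3408A with tra1_SRR3413, 0.467 for tra1_P3408A with tra1_S3463A and 0.930 for tra1_SRR3413 with tra1_S3463A), so the numbers were taken to pair the arrays. Array 2 of tra1_SRR3413 and of tra1_S3463A also share slide 3, and the part of the dye and of the slide in these correlations was not tested. Fits blocked on the array number or on the slide leave 2 and 1 residual degrees of freedom. A block also removes what the TRA1 channels share, so its p-values may be too small.

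The genes, classes and further lists were chosen with earlier results of these data known. Genes past the threshold in any allele are named with all values, then the highest and lowest of each class among the others, and at most 4 for each further list and allele. Promoter sequences were not analysed here. The number of arrays limits the precision. Figures were drawn with matplotlib 3.10.9.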

Additional observations from a re-analysis of the deposited data

Results flagged for a closer look

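CTF4 was the only gene of the 38 tested for which both arrays of an allele lay above 0 and both arrays of another below it. Its log2 ratios were 0.05 and 0.10 in tra1_SRR3413, against -0.01 and -0.06 in tra1_S3463A, a difference of 0.113 between the means. The sign pattern itself was not tested and was not counted over all genes. In limma's contrast the difference had an unadjusted p of 0.454 and an adjusted p of 0.9996.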

How the results depend on the processing

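The counts of genes that rose were 4 of 38 in tra1_P3408A, 15 in tra1_SRR3413 and 5 in tra1_S3463A. Of all genes 4.76%, 9.33% and 6.37% rose, in that order. With the array number as a block the counts were 19, 26 and 19, where 16.9%, 24.1% and 21.2% of all genes rose. A block for the slide gave 21, 26 and 23, where 21.3%, 25.0% and 24.5% of all genes rose. With median centring in place of loess tra1_P3408A had 1 (2.63% of all genes), and with only its own arrays in the fit 14 (11.6%). With array 1 of tra1_S3463A counted with tra1_SRR3413, as its source label names it, tra1_S3463A had 1. With both arrays of slide 3 left out, chosen after seeing the data, tra1_P3408A had 13 and tra1_SRR3413 had 9. Leaving out 1 array gave 0 to 4 in tra1_P3408A, 1 to 12 in tra1_SRR3413 and 0 to 8 in tra1_S3463A, where a lone array was assumed to vary like the others. Of the 24 values that passed over the 3 alleles, all 24 still passed with either block, whose p-values may be too small. All 24 also passed with either other filter on dim genes and with saturated spots left out. These settings could not change the ratios of the 39 genes, whose spots were all unsaturated and well above background. With processed signals, the deposited ratios, the series table, no background correction or outlier spots kept, 23 passed. With median centring 18 passed, and with only the arrays of the allele 16. Fewer than 24 passed with the other reading of the label and with an array left out. Contrasts between alleles gave 0 under every setting but the fit of an allele's own arrays, which holds no contrast. The G1/S minus constitutive difference stayed above 0, at 0.0216 to 0.266 in tra1_P3408A, 0.0901 to 0.178 in tra1_SRR3413 and 0.0841 to 0.164 in tra1_S3463A. Signs turned in tra1_SRR3413 for PRI2 (0.041 with median centring, and -0.30 to 0.13 with 1 of its arrays left out), MCM6 (-0.083 to 0.46) and ORC6 (-0.069 to 0.17), in tra1_S3463A for MCM6 (-0.15 to 0.53, and -0.15 with the other reading of the label) and in tra1_P3408A for MCM2 (-0.016 to 0.45), each range over the 2 arrays left out in turn. None of these values passed the test, and the cause was not tested. No other setting run turned the sign of a gene that passed or was the highest or lowest of its class among the others. The remaining genes were not followed through every setting, and with the slide as a block RFC4 in tra1_P3408A was at -0.00922, against 0.15. The lowest mean log2 ratio that passed was 0.41, and the dye, the array number and part of the slide layout cannot be told apart.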
